A study of Equus caballus with 12 samples.

Results

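STRN3, STK24, MAP4K4 and VGLL4 are 4 genes of the Hippo pathway and of the STRIPAK complex, a phosphatase assembly that acts on Hippo kinases. They were taken by their Ensembl identifiers (ENSECAG00000010464, ENSECAG00000007682, ENSECAG00000008730 and ENSECAG00000039947) from the 11425 genes that the normalized count table of a horse oocyte RNA sequencing study lists. The 4 genes were chosen by these same normalized counts, with their differences between the groups known from an earlier look at the data. Their levels and fold changes are therefore a description and carry no test. Another 17 genes of the same pathways, from lists of 93 symbols, are given after them with tests.

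The study compared horse oocytes that all had been matured in vitro with follicle-stimulating and luteinizing hormone, stripped of cumulus cells and kept only when a polar body was visible. VIM oocytes (labelled VGV in the sample titles) were vitrified while immature with the corona radiata around them, warmed and then matured, and 4 libraries were made from them. VMAT oocytes were matured first, denuded, vitrified and warmed, with 3 libraries, and FR oocytes were fresh matured controls, with 5 libraries. Vitrification is ice-free freezing by a fast plunge into liquid nitrogen, here with ethylene glycol, propylene glycol and trehalose. Each library came from a pool of 23 oocytes on average, taken from slaughterhouse ovaries of mares whose age and breed are not given in the sources used here. FR and VMAT oocytes shared their maturation cultures, according to the study. The sources used here do not say whether pools shared mares, so any spread between libraries, and any p-value, may be partly technical.

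In the Hippo pathway, the MST kinases with their partner SAV1 switch on the LATS kinases with their partner MOB1, and LATS phosphorylates YAP1 and WWTR1, which then leave the nucleus. When YAP1 stays in the nucleus, it drives target genes together with the TEAD transcription factors. MAP4K and TAO kinases feed into the same cascade. STRIPAK joins protein phosphatase 2A to a striatin scaffold and removes activating phosphates from MST and MAP4K kinases, whereas the GCKIII kinases, including STK24, are held in the complex by PDCD10. In mammalian embryos the pathway is best known for separating the trophectoderm from the inner cell mass, and in the ovary for its part in follicle growth. A fully grown oocyte transcribes little and works from stored messenger RNA.

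Between 1636620 and 12166950 reads per library lay on genes, and both extremes were VMAT libraries (replicates 1 and 2). The floor of 3 reads was 0.376 to 9.34 on the normalized count scale, which is reads divided by a size factor for each library. Such floors and the intervals given below cover counting error only. The oocyte genes GDF9, DPPA3 and BTG4 were present in all 12 libraries, at normalized counts of 463 to 4413, 4501 to 16505 and 3177 to 8872. Of 15 oocyte markers, 7 could be found by name, and among these only FIGLA and in only 1 library (VMAT replicate 1) stood at 0. The other markers were less steady. ZP4 had 30 or more reads in all 12 libraries, BMP15 in 10, ZP2 in 9 and FIGLA in 6. The lowest values were 4 reads for ZP2 and 11 for BMP15. Of 15 cumulus and granulosa cell markers, 1 could be found, HAS2, at 641 to 2144 in VIM, 254 to 1755 in VMAT and 462 to 1239 in FR. The part of cumulus RNA in the results was not tested. No library pair of any group agreed within sampling noise, so none looked like the same library sequenced again. That check cannot tell separate pools from parts of 1 pool. All 12 were counted as separate samples.

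STRN3, a striatin that serves as the regulatory and scaffold subunit of STRIPAK, was high in every VIM library and low in most FR libraries. Its normalized counts were 217, 1379, 912 and 1523 in VIM replicates 1 to 4. In VMAT they were 1170, 230 and 2.36, and in FR they were 3.23, 9.15, 3.36, 182 and 6.44. All 4 VIM libraries lay above all 5 FR libraries, whereas VMAT had 2 libraries within the VIM range and 1 below all FR libraries. In pools of oocytes, fewer oocytes holding a transcript and less of it per oocyte cannot be told apart.

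Behind the low FR values stood 3, 8, 6 and 9 reads, and the 95% exact Poisson intervals of these stayed far below the lowest VIM value of 217. FR replicate 4, with 360 reads for STRN3, came close to the lowest VIM library, which had 353 reads. Their intervals on the normalized scale, 163 to 201 and 195 to 241, overlapped. In VMAT, replicates 1 and 2 had 376 and 1836 reads and replicate 3 had 2. The interval of VMAT replicate 3, 0.286 to 8.52, reached into the low FR values. The mean was 1008 ± 588 in VIM (SD, n = 4), 467 ± 619 in VMAT (SD, n = 3) and 40.8 ± 78.8 in FR (SD, n = 5).

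On the log2(normalized count + 1) scale, the STRN3 difference was 6.06 ± 1.68 (SE) for VIM against FR, or 66.7-fold, and 4.39 with edgeR. The added 1 shrinks changes of low genes, whereas libraries with few reads weigh more in log2 means than in plain means. The ratio of the plain means was 24.7. For VMAT against FR the difference was 3.01 ± 2.43, and it fell to 1.21 without VMAT replicate 1 and reached 5.43 without VMAT replicate 3. For VIM against VMAT it was 3.05 ± 1.54 and ranged from 0.63 without VMAT replicate 3 to 4.85 without VMAT replicate 1. VIM and VMAT are set against the same FR libraries, so their differences from FR are not independent of each other.

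**Figure D1:**
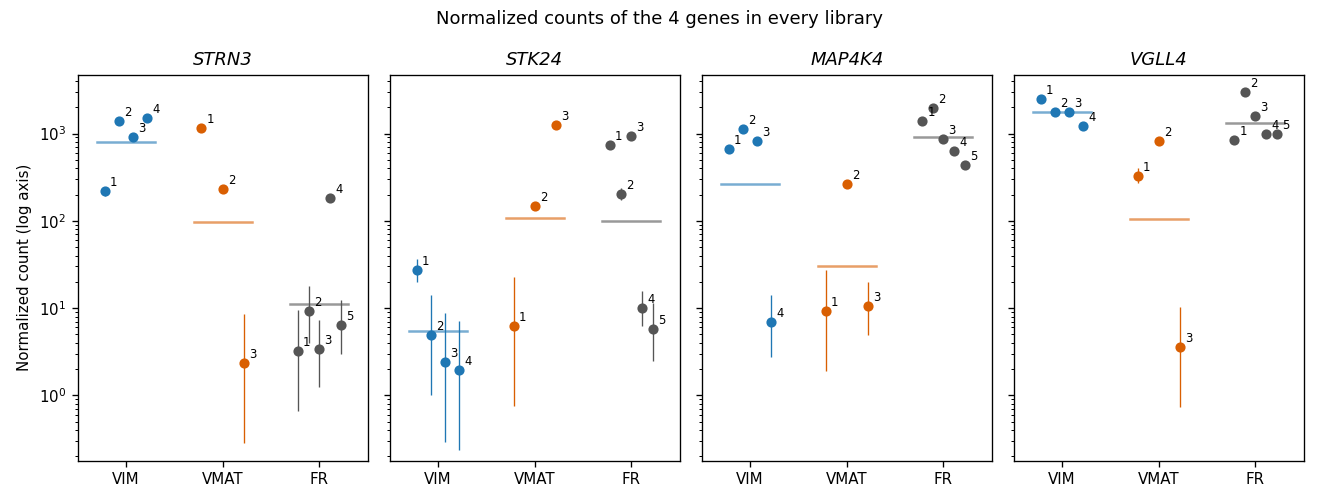
Normalized counts of STRN3, STK24, MAP4K4 and VGLL4 (y axis, log scale, normalized counts) in the VIM, VMAT and FR libraries (x axis), each point a library with its replicate number, thin bars the 95% exact Poisson counting interval, and horizontal lines the group mean of the log2 values turned back to normalized counts. STRN3 stood at 217 or more in all VIM libraries and at 9.15 or less in 4 of 5 FR libraries, and in each panel at least 1 VMAT library lay below 10.

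STK24, a GCKIII kinase also known as MST3, showed its low values in the group where STRN3 was high. In VIM replicates 1 to 4 its normalized counts were 27.6, 4.89, 2.41 and 1.96, from 45, 3, 2 and 2 reads. VMAT libraries stood at 6.22, 147 and 1244, and FR libraries at 731, 202, 944, 10.1 and 5.73. No VIM library reached 30 on the normalized scale, but 1 VMAT and 2 FR libraries were equally low, so the groups overlapped.

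The upper 95% Poisson bound was 37.0 for VIM replicate 1 and at most 14.3 in the other VIM libraries. In FR, 3 libraries had 177 to 1686 reads and 2 had 8 and 20. The mean was 9.22 ± 12.3 in VIM (SD, n = 4), 466 ± 678 in VMAT (SD, n = 3) and 379 ± 433 in FR (SD, n = 5).

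The log2 difference of STK24 was -3.98 ± 2.16 (SE) for VIM against FR and -4.10 ± 2.80 for VIM against VMAT. Leaving out any 1 library kept both below 0, between -4.95 and -3.17 for the former and between -6.06 and -2.35 for the latter. VMAT against FR gave 0.12 ± 1.96, and its sign turned in 4 of 8 fits with 1 library left out, from -1.63 without VMAT replicate 3 to 2.09 without VMAT replicate 1.

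MAP4K4, a kinase that activates LATS in parallel to the MST kinases and also signals to JNK, was low in VMAT. In VIM its normalized counts were 669, 1126, 830 and 6.84, in VMAT 9.34, 261 and 10.6, and in FR 1397, 1972, 870, 629 and 435. All 3 VMAT libraries lay below all 5 FR libraries. VIM overlapped with FR, and with VMAT only through replicate 4, which had 7 reads while the other VIM libraries had 689 to 1090.

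In VMAT replicates 1 and 3 the gene had 3 and 9 reads, with upper 95% Poisson bounds of 27.3 and 20.1 on the normalized scale, both below the lowest FR library. VMAT replicate 2 had 2085 reads, a high read number that its depth brought to a normalized count of 261. The mean was 658 ± 474 in VIM (SD, n = 4), 93.7 ± 145 in VMAT (SD, n = 3) and 1061 ± 624 in FR (SD, n = 5).

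For MAP4K4 the log2 difference was -4.87 ± 1.40 (SE) in VMAT against FR, and the plain mean of FR was 11.3 times that of VMAT. With 1 library left out the difference stayed between -6.39 and -4.06. VIM against FR gave -1.80 ± 1.18, which came to -0.10 without VIM replicate 4. In VIM against VMAT the difference was 3.07 ± 2.04, and 4.76 without VIM replicate 4.

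VGLL4, which binds TEAD factors in place of YAP1 and so holds back their target genes, was also low in VMAT and had 1095 or more reads in every VIM library. Normalized counts were 2498, 1785, 1764 and 1212 in VIM, 330, 811 and 3.54 in VMAT, and 837, 2963, 1585, 978 and 976 in FR. All VMAT libraries lay below all VIM and all FR libraries. The gap was narrow against FR, where the highest VMAT library stood at 811 and the lowest FR library at 837.

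VMAT replicate 3 had 3 reads for VGLL4, and its upper 95% Poisson bound was 10.3 on the normalized scale. VMAT replicates 1 and 2 had 106 and 6473 reads. The mean was 1815 ± 527 in VIM (SD, n = 4), 381 ± 406 in VMAT (SD, n = 3) and 1468 ± 884 in FR (SD, n = 5).

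The plain mean of VGLL4 in FR was 3.85 times that of VMAT. Its log2 difference was -3.61 ± 1.29 (SE) in VMAT against FR, -1.68 with edgeR and -1.33 without VMAT replicate 3. For VIM against VMAT it was 4.04 ± 1.34, and 1.76 without that library. VIM against FR differed by 0.43 ± 0.60, less than its error. Among the 4 genes this was the smallest log2 difference between VIM and FR.

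**Figure D2:**
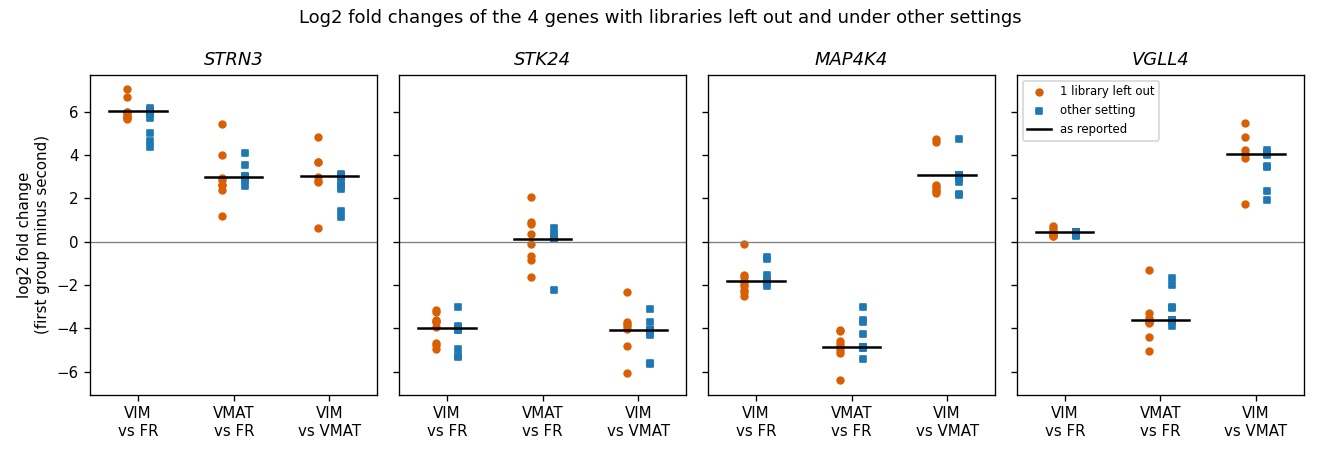
Log2 fold changes of the 4 genes (y axis, first group minus second on the log2 scale) in the 3 comparisons (x axis), with the value as reported (black line), each value with 1 library left out (orange points) and each value under another setting (blue squares). Signs held throughout except for STK24 in VMAT against FR, which lay between -2.24 and 2.09.

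The groups did not overlap for 1 of the 4 genes in VIM against FR (STRN3, higher), for 2 in VMAT against FR (MAP4K4 and VGLL4, lower) and for 1 in VIM against VMAT (VGLL4, higher). Over all genes tested, 0.952% did not overlap in that direction in VIM against FR, 1.23% in VMAT against FR and 1.72% in VIM against VMAT. Since the genes were picked for these contrasts, nothing follows from the comparison of these shares.

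The 4 genes were also counted by library, as a description, since they were chosen by these values. STRN3 and STK24 both had 30 or more reads in 2 of the 12 libraries (VIM replicate 1 and VMAT replicate 2), STRN3 alone did in 5, STK24 alone in 4, and neither in 1 (FR replicate 5). MAP4K4 and VGLL4 both had 30 or more reads in 9 libraries, only VGLL4 did in 2, and neither in 1 (VMAT replicate 3). These are counts over libraries that differ in depth, and VMAT replicate 2, the deepest, was one of the 2 libraries with 30 or more reads for all 4 genes.

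The spread within groups was wide for all 4 genes, on both sides of what is usual in this table. The within-group SD on the log2 scale was 2.65 for STRN3, 2.97 for STK24, 2.40 for MAP4K4 and 1.97 for VGLL4, against a median of 2.67 over the 3530 tested genes with a mean normalized count of at least 100. Each of the 4 had a library with under 30 reads and another with 300 or more, as did 79.0% of those 3530 genes. Of the 48 values of the 4 genes, 14 rested on 2 to 10 reads and 32 on 100 or more.

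Genes with the most similar pattern were looked up among 8657 others by Pearson's r of the log2 values over the 12 libraries, which share depth and scaling. STRN3 was closest to ENSECAG00000016503 (r = 0.96) and ENSECAG00000021352 (r = 0.86), which have no name in the sources used here. The third was POT1, a telomere protection gene (r = 0.82), at 21.2 to 365 in VIM and 1.08 to 26.3 in FR. STK24 was closest to ENSECAG00000043297 (r = 0.94), TTC5 (r = 0.90) and ENSECAG00000010209 (r = 0.89). TTC5, which takes part in the decay of tubulin messenger RNA, ran from 7.82 to 150 in VIM and from 10.7 to 866 in FR.

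For MAP4K4 the closest were MIX23 (r = 0.97), BARD1, the partner of BRCA1 (r = 0.96), and USP3, a histone deubiquitinase (r = 0.93). BARD1 stood at 629 to 1196 in FR and at 9.34 to 486 in VMAT, whereas USP3 overlapped between them, at 170 to 849 in FR and 4.72 to 218 in VMAT. VGLL4 was closest to NOP56, a core protein of small nucleolar ribonucleoproteins (r = 0.93), GTF2A1, a general transcription factor subunit (r = 0.90), and RYBP, a Polycomb protein (r = 0.90). RYBP stood at 375 to 811 in VIM and at 4.72 to 257 in VMAT. These genes were picked for their likeness to the 4, so their group differences follow in part from the choice.

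Of the 93 listed symbols, 21 could be paired with a row of the table, the 4 genes and 17 others. None of the nearest relatives of the 4 genes (STRN, STRN4, STK25, STK26, MAP4K1, MAP4K2, MAP4K3, MAP4K5, TNIK, MINK1, VGLL1, VGLL2 and VGLL3) was among these, nor YAP1, a TEAD gene or a LATS gene, and they were not analysed here. Gene names came from shortened tables ordered by fold change, which lean towards genes that were lower in the vitrified groups. The named genes as a whole had a median log2 difference of -0.27 in VIM against FR and -0.31 in VMAT against FR, compared with -0.12 and 0.01 over all genes.

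In VIM against FR, 7 of the 17 other genes had higher and 10 lower values, beside 41.0% higher among all named genes. The median log2 difference of the 17, -0.13, lay close to that of all genes. It ranged from -0.80 without FR replicate 4 to 0.13 without VIM replicate 3. Limma called 0 of the 17 DE after Benjamini-Hochberg adjustment, as it did for 0% of the 7351 genes tested. At an unadjusted p under 0.05 limma gave 1 of the 17, PDCD10, beside 3.78% of all genes. DESeq2 called 0 of the 17 against 6.91% of all genes, and edgeR called 0 of the 17 and 0% of all genes. At an unadjusted p under 0.05 DESeq2 gave 0 of the 17 beside 12.9% of all genes, and edgeR 0 beside 16.8%. DESeq2 gave no p-value to 27.1% of all genes, which count here as not called, but gave one to each of the 17.

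PDCD10, the adaptor that holds the GCKIII kinases in STRIPAK, had normalized counts of 61.4, 1270, 353 and 510 in VIM, 3.11, 211 and 7.07 in VMAT, and 4.31, 3.43, 16.2, 31.8 and 664 in FR. Every VIM library was above 4 of the 5 FR libraries, and FR replicate 5 was above 3 of the 4 VIM libraries. The log2 difference of PDCD10 in VIM against FR was 3.82 ± 1.77 (SE; limma adjusted p = 0.902), and ranged from 3.19 without VIM replicate 2 to 5.01 without FR replicate 5. It was 1.65 with edgeR and 1.91 with DESeq2, and the ratio of the plain means was 3.81. In VIM against VMAT it was 4.18 ± 2.05 (SE; limma adjusted p = 0.967), with 2.21 from edgeR and 3.01 from DESeq2.

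The remaining STRIPAK genes named here were the PP2A subunits PPP2R1A, PPP2R1B and PPP2CB, the organizer STRIP2, and the adaptors SLMAP and FGFR1OP2. All had negative log2 differences in VIM against FR with limma, from -3.16 to -1.04, and none passed the test. Among all named genes, 1516 of 2569 were lower. PPP2CB turned to 0.06 with edgeR and 0.14 with DESeq2. The PPP2R1A difference rested largely on FR replicate 2, at 542 with the other FR libraries at 3.23 to 142. SLMAP, which brings STRIPAK to the MST kinases, had 1 or 2 reads in 3 VIM libraries and 826 in replicate 4, and in FR its normalized counts ran from 1.43 to 751. PPP2R1B, a scaffold subunit of the phosphatase, had 2 to 8 reads in 3 VIM libraries and 402 in replicate 3, and its normalized counts in FR ran from 3.58 to 1322.

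**Figure D3:**
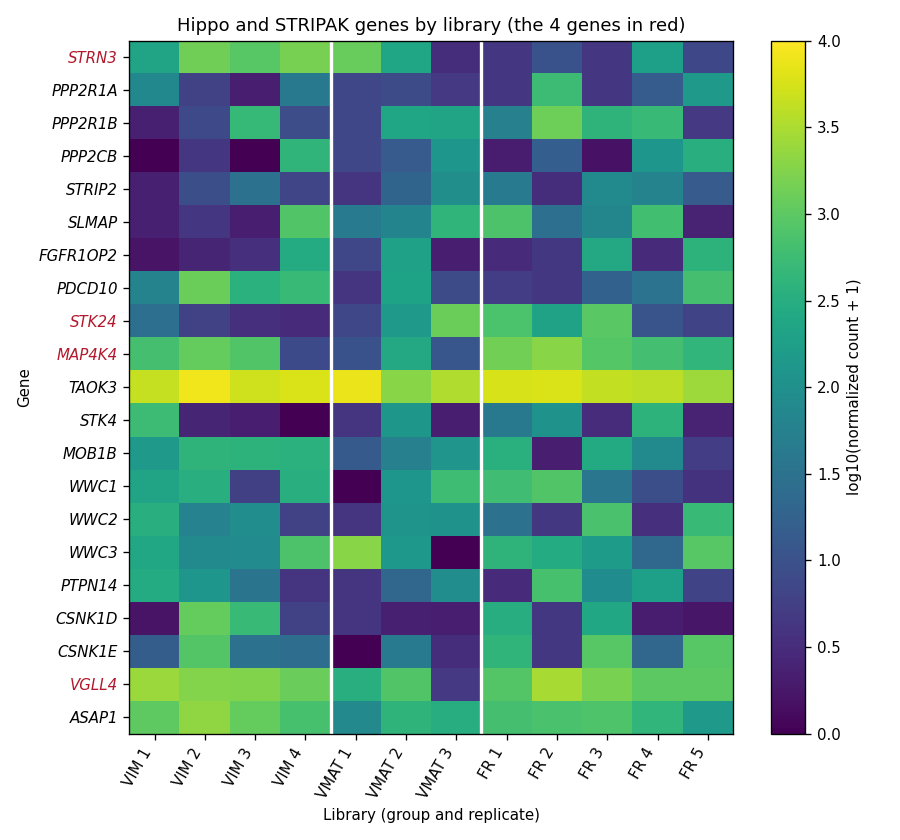
Normalized counts of the 21 Hippo and STRIPAK genes found (rows) in the 12 libraries (columns), coloured by log10(normalized count + 1), with the 4 genes in red letters and white lines between groups. Most rows switch between libraries of the same group, as in 15 of the 17 other genes with a library under 30 and one at 300 or more reads, and TAOK3 is the row that is high throughout.

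TAOK3, a kinase of the TAO family that acts upstream of MST, was the steadiest gene of the lists. Its normalized counts were 4400, 8315, 5111 and 5927 in VIM, 7593, 1924 and 3324 in VMAT, and 5803, 5837, 4358, 3947 and 2563 in FR. The within-group SD was 0.61 on the log2 scale, and the differences were 0.42 ± 0.37 (SE) in VIM against FR and -0.24 ± 0.59 in VMAT against FR. Among the 17, TAOK3 alone had 30 or more reads in all 12 libraries.

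Of the core kinase cassette, 2 genes were found. MOB1B, the coactivator of LATS, had normalized counts of 144, 394, 382 and 359 in VIM, 12.4, 54.7 and 120 in VMAT, and 350, 1.14, 273, 81.2 and 4.30 in FR. All VIM libraries were above all VMAT libraries, with a log2 difference of 2.73 ± 1.89 (SE; limma adjusted p = 0.967), while 3 of the 4 VIM libraries lay above all FR libraries and FR covered the range of VMAT. STK4, also known as MST1, had over 30 reads in 1 VIM library, 1 VMAT library and 3 FR libraries. Its log2 difference in VIM against FR was -1.84 with limma, 0.36 with edgeR and 0.32 with DESeq2.

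In VMAT against FR, 3 of the 17 genes had higher and 14 lower values, beside 40.4% higher among all named genes. The median log2 difference was -0.54 for the 17 and -0.31 for the named genes. For the 17 it moved between -1.63 without VMAT replicate 2 and -0.03 without VMAT replicate 1. Limma called 0 of the 17 after adjustment, beside 0% of the 8305 genes tested, and gave 0 at an unadjusted p under 0.05, beside 3.62% of all genes. Called by DESeq2 was 1 of the 17, CSNK1D, beside 4.3% of all genes, and edgeR called 0 beside 0.012%. Unadjusted p-values under 0.05 were given to 3 of the 17 by DESeq2 (CSNK1D, CSNK1E and PPP2R1A), beside 10.8% of all genes, and to 1 by edgeR (CSNK1E), beside 13.6%. DESeq2 gave no p-value to 1 of the 17 (PDCD10) and to 29.8% of all genes.

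CSNK1D and CSNK1E encode casein kinases that act on YAP1 already phosphorylated by LATS and promote its degradation. CSNK1D had 1, 10 and 1 reads in the VMAT libraries, and normalized counts of 313, 3.43, 247, 1.01 and 0.716 in FR and of 0.614, 1143, 515 and 4.89 in VIM. Its log2 difference in VMAT against FR was -6.05 ± 2.0 (SE) with DESeq2 (adjusted p = 0.0404) and -2.59 ± 2.56 with limma (adjusted p = 0.956). In FR and in VIM, 2 libraries each had 290 to 701 reads and the others 1 to 5, so the VMAT values lay within the range of both groups. CSNK1E gave -4.56 ± 2.30 (SE; limma adjusted p = 0.950) in VMAT against FR, from 0, 45.1 and 2.36 in VMAT and 416, 3.43, 924, 19.7 and 919 in FR.

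The 6 upstream regulators found, WWC1, WWC2, WWC3, PTPN14, CSNK1D and CSNK1E, all had negative log2 differences in VMAT against FR with limma. Their median was -1.48, and WWC1 turned to 0.07 with a pseudocount of 10. The signs of WWC1 and WWC2 depended on their lowest VMAT library, where they had 0 reads and 1 read. In the other VMAT libraries WWC1 stood at 128 and 562 and WWC2 at 110 and 116, above the FR medians of 35.8 and 31.3. WWC3, a relative of the KIBRA protein WWC1, turned to 0.38 with edgeR and 0.97 with DESeq2, and to 1.3 without VMAT replicate 3, where it had 0 reads. The normalized counts of WWC3 in the other VMAT libraries were 1945 and 133, and they ran from 21.2 to 904 in FR and from 78.2 to 751 in VIM.

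In VIM against VMAT, 11 of the 17 genes had higher and 6 lower values, beside 50.8% higher among all named genes. The median log2 difference was 1.13 for the 17 and 0.02 for the named genes. For the 17 it came to 0.11 without VMAT replicate 1 and to 0.38 without VIM replicate 1. Limma called 0 of the 17 after adjustment, beside 0% of the 7627 genes tested, and 1 (PDCD10) had an unadjusted p under 0.05, beside 2.98% of all genes. DESeq2 called 1 of the 17, CSNK1D, beside 3.93% of all genes (log2 difference 7.97 ± 1.95, SE; adjusted p = 0.00378), and edgeR called 0 beside 0.0131%. Without adjustment, DESeq2 gave a p under 0.05 to 3 of the 17 (ASAP1, CSNK1D and PDCD10), beside 11.1% of all genes, and edgeR to CSNK1D, beside 10.8%. DESeq2 gave no p-value to 6 of the 17 (PPP2CB, PPP2R1B, FGFR1OP2, SLMAP, CSNK1E and STK4) and to 30.7% of all genes. With limma the CSNK1D difference was 4.16 ± 2.92 (SE; adjusted p = 0.967). The 6 upstream regulators had positive differences with limma, with a median of 1.47. But WWC3 turned to -0.67 with edgeR and -1.25 with DESeq2, and WWC1 to -0.22 and -0.06. The signs of WWC1 and WWC2 with limma again depended on their lowest VMAT library, with 0 reads and 1 read.

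ASAP1, an ARF GTPase-activating protein counted among YAP1 and TEAD targets, was the only target gene of 20 that could be found. Its normalized counts were 1014, 2179, 1128 and 678 in VIM, 74.7, 399 and 314 in VMAT, and 668, 721, 804, 431 and 145 in FR. VIM lay above VMAT without overlap, at a log2 difference of 2.43 ± 1.28 (SE; limma adjusted p = 0.967). The difference was 1.26 ± 0.81 in VIM against FR and -1.17 ± 1.24 in VMAT against FR. MOB1B and ASAP1 were the 2 of the 17 genes whose VIM and VMAT libraries did not overlap, both higher in VIM. That direction without overlap was seen in 1.72% of all genes and in 74 of the 2569 named genes, a larger share. In VIM against FR and in VMAT against FR the groups did not overlap in either direction for 0 of the 17, beside 1.59% and 3.19% of all genes.

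**Figure D4:**
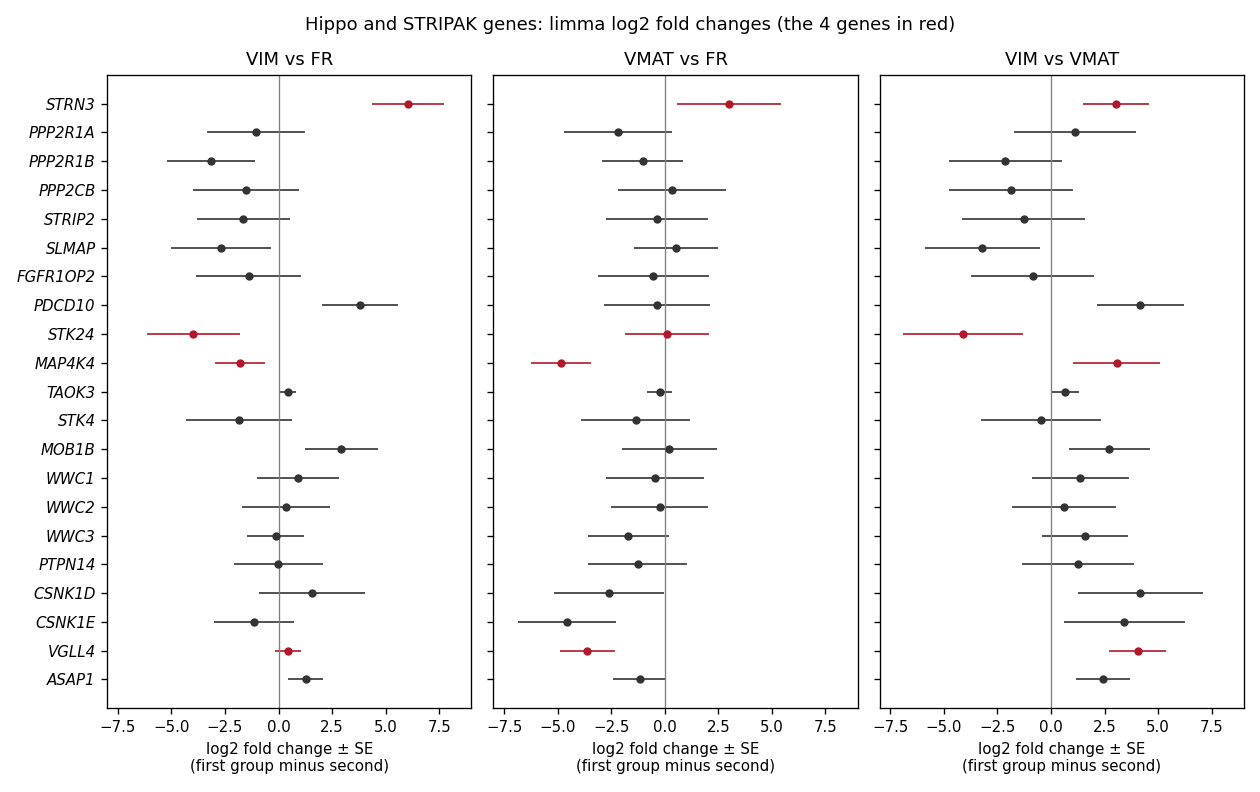
Log2 fold changes with standard errors (x axis, first group minus second, limma on log2(normalized count + 1)) of the 21 Hippo and STRIPAK genes (y axis) in VIM against FR, VMAT against FR and VIM against VMAT, with the 4 genes in red. Most error bars of the other 17 genes cross 0, and TAOK3 has the shortest ones.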

How the data were processed

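RNA from pools of horse oocytes was sequenced by the authors with a QIAseq UPX 3′ kit, which reads transcript ends and tags molecules. Per the labels and the study's methods, reads were trimmed with Trim Galore, mapped to EquCab3.0 with STAR, processed with UMI-tools and counted with RSEM. The deposited values are a signal per gene, the counts divided by 1 DESeq2 size factor per library. The authors removed 1 VMAT library. All values were whole multiples of a step per library (100.0% within a tolerance of 0.01), and whole reads were recovered from it.

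The 4 genes and the gene lists were chosen with earlier results of these data known. Groups were compared in pairs with limma 3.58.1 (R 4.3.3; lmFit and trended eBayes). It was run on log2 values after adding a pseudocount of 1 to each normalized count, for genes above 0 in at least as many libraries as the smaller group. DE means a Benjamini-Hochberg adjusted p not above 0.05, over all genes tested, with a log2 fold change of 1 or more in either direction. Since the deposited values are not counts, edgeR 4.0.16 (quasi-likelihood, TMM) and DESeq2 1.42.0 were run on recovered reads as alternatives only. The fits were tested on simulated counts with known changes and much less spread within groups than in these data. That checks the code and not how the fits perform here. Symbols were paired with 2569 identifiers through the study's gene and GO tables, whose statistics were not used.

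The named genes were those at an unadjusted p under 0.05 or called by DESeq2 or edgeR, the 3 highest and 3 lowest per comparison, the gene with the highest mean per list, and the 3 most similar genes for each of the 4. Other STRIPAK genes were added after their values were seen. One listed gene is not reported here, and counts over the lists leave it out. The alternatives were other pseudocounts, filters, scalings and fits, a replicate block and leaving out each library. Numbers were not treated as pairs, and the replicate block was run only as an alternative. Same-numbered libraries did not deviate together, but so few pairs cannot decide whether numbers mark shared sessions. Sequences and gene positions were not analysed here. Figures were drawn with matplotlib 3.10.9.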

Additional observations from a re-analysis of the deposited data

Results flagged for a closer look

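The VIM and FR groups were searched for a library far from the rest of its group by Dixon's criterion, over the normalized counts of the 21 genes and over reads and genes detected. In 13 of 46 such groups 1 library stood apart. The criterion flags about 1 in 20 groups when values are normal and independent. These counts are skewed and come from the same libraries, and the 4 genes were chosen by them. That rate therefore cannot tell how many flags arise by chance here. Among the 4 genes, STRN3 in FR replicate 4 stood at 182 with the others of the group at 3.23 to 9.15, and STK24 in VIM replicate 1 at 27.6 with the others at 1.96 to 4.89. VIM replicate 4 was apart for PPP2CB at 419, for SLMAP at 808 and for FGFR1OP2 at 288, with the other VIM libraries at 3.26 or less for each gene. Other VIM libraries apart were replicate 3 for PPP2R1B at 484, replicate 1 for STK4 at 544, replicate 2 for CSNK1E at 836 and, on the low side, replicate 1 for MOB1B at 144. In FR, replicate 2 was apart for PPP2R1A at 542 and for PTPN14 at 692, replicate 4 for STK4 at 391, and replicate 5 for PDCD10 at 664.

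For ASAP1, every VIM library lay above and every VMAT library below the mean FR log2 level. The log2 difference between VIM and VMAT was 2.43, and limma with Benjamini-Hochberg adjustment gave it an adjusted p of 0.967.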

How the results depend on the processing

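Of the 17 other genes, limma called 0 in each comparison under every other setting run with limma, and with any 1 library left out. DESeq2 called 1 in VMAT against FR and 1 in VIM against VMAT (CSNK1D in both), and edgeR 0. Genes without a DESeq2 p-value count as not called. Genes at an unadjusted p under 0.05 numbered 1 in VIM against FR. That count was 0 with edgeR, DESeq2, all 12 libraries in one fit, quantile normalization, equal column totals and a minimum normalized count of 10, 2 with the replicate block (PDCD10 and PPP2R1B), and 0 to 2 with 1 library left out. In VMAT against FR the count was 0. It became 1 (CSNK1E) with a pseudocount of 0.5, quantile normalization, all 12 libraries in one fit and edgeR, 3 with DESeq2, and 0 to 1 with 1 library left out. In VIM against VMAT the count was 1. It became 2 without a filter, 3 with DESeq2, 0 with a minimum normalized count of 10, with quantile normalization and with the replicate block, and 0 to 2 with 1 library left out.

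Some differences changed sign, larger ones among them. In VMAT against FR, MOB1B (0.21) gave -0.25 with a pseudocount of 10, -1.10 with edgeR, -1.16 with DESeq2 and -0.39 with the replicate block, and -0.84 to 1.08 with 1 library left out. PPP2CB (0.35) gave -0.18 with a pseudocount of 10, -0.20 with quantile normalization, -1.08 with edgeR and -0.89 with DESeq2, and -0.86 to 1.38 with 1 library left out. SLMAP (0.53) gave -0.81 with edgeR, -0.70 with DESeq2 and -0.10 with the replicate block, and -0.70 to 1.36 with 1 library left out. WWC3 (-1.70) gave 0.38 with edgeR and 0.97 with DESeq2, and -4.16 to 1.3 with 1 library left out. Leaving out 1 library also gave PPP2R1B -2.28 to 0.62 and TAOK3 -0.77 to 0.22. In VIM against FR, WWC3 (-0.13) gave 0.46 with quantile normalization, 0.41 with the replicate block and -0.93 to 0.41 with 1 library left out, and STK4 (-1.84) gave 0.36 with edgeR and 0.32 with DESeq2. In VIM against VMAT, SLMAP (-3.21) gave 0.22 with edgeR and with DESeq2, PPP2CB (-1.85) gave 1.12 with both, and WWC3 (1.57) gave -0.67 with edgeR, -1.25 with DESeq2 and -1.42 to 4.04 with 1 library left out. The cause was not tested.

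The 4 genes kept their signs under every other setting, except STK24 in VMAT against FR, which gave -2.24 with the replicate block. Their sizes moved more. In VIM against VMAT, STRN3 (3.05) gave 1.12 with DESeq2 and VGLL4 (4.04) gave 1.93 with edgeR. In VIM against FR, MAP4K4 (-1.80) gave -0.69 with DESeq2, whereas STK24 (-3.98) grew to -5.35 with DESeq2. Same-numbered libraries had deviations correlated at -0.030 to 0.013. So few pairs with such wide spread cannot decide whether the numbers mark shared sessions. Each library correlated best with its own number in 1 of 4, 0 of 3 and 0 of 3 pairs of VIM against FR, VMAT against FR and VIM against VMAT. Restricting the lists to genes named in the GO table, chosen after seeing the data, gave a median of 0.39 in place of -0.13 in VIM against FR, and quantile normalization gave 0.32. Over all genes, eBayes without trend called 3 in VIM against FR, and equal column totals moved the median of VIM against VMAT from -0.08 to -0.19 and quantile normalization that of VMAT against FR from 0.01 to -0.10. The shallowest library, VMAT replicate 1, cannot separate a level of 9.34 from its floor.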
